A study of Mus musculus with 12 samples.

Results

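Stromal, smooth muscle and collagen genes were followed in granulosa cells that had been cut by laser from preovulatory mouse follicles. The set was a fixed list of 34 genes in 5 roles: 8 interstitial collagens, 7 basement membrane genes, 9 other matrix genes, 5 fibroblast and pericyte genes and 5 smooth muscle genes. Of the 34 genes, 33 were measured among 18193 genes in all. Fbn1 had no probe set naming it alone and was not analysed here. Each gene was read from the probe set, annotated to no other gene, with the highest mean over the 12 arrays. The groups, with 3 one-colour arrays each, were bERKO after PMSG and hCG, WT after PMSG and hCG, bERKO after PMSG alone, and WT after PMSG alone. bERKO mice lack estrogen receptor beta. The sources used here do not give the allele, the strain or the number of animals behind an array. All mice were 3 weeks old. Every group received PMSG, a gonadotropin that drives follicle growth, and cells were taken 48 h after it in the PMSG groups. hCG, a hormone that activates the luteinizing hormone receptor, was given in addition in the hCG groups, whose cells were taken 4 h after it. For the hCG groups too, the time after PMSG is listed as 48 h. The RNA input to amplification was 25 ng per array.

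Granulosa cells line the inside of the follicle and rest on a basal lamina, a sheet of type IV collagen, laminin and nidogen. No vessels or connective tissue cells lie inside that sheet before ovulation; the theca outside it holds fibroblasts, smooth muscle cells, capillaries and pericytes in a matrix of fibrillar collagen. Granulosa cells themselves make basement membrane components, whereas fibrillar collagens, lumican, decorin and contractile proteins are classical products of fibroblasts and smooth muscle. The ovulatory gonadotropin surge remodels both compartments.

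Levels are given as quantile-normalized log2(intensity + 16), a scale whose floor is 4. Changes of dim genes come out too small on it. Values of 3 arrays are always listed as replicate 1, 2 and 3. A gene was called where limma's two-sided test, fitted over all 12 arrays, gave a Benjamini-Hochberg adjusted p under 0.05 over all 18193 genes. Arrays of a group are biological replicates by their labels. P-values measure the spread between these arrays and would be too small if arrays shared an animal. Replicates of a group correlated at r of 0.9146 to 0.9708 across genes. Of the granulosa markers, 10 were measured and 0 were near the floor, meaning under 6 on every array. The Gapdh 3'/5' signal ratio was 32.16 on WT hCG replicate 1 and 23.74 on bERKO PMSG replicate 3, against 4.72 to 11.19 on the other arrays. WT PMSG replicate 3 and bERKO hCG replicate 3 stood apart in the stromal genes, as described further on. They were named for that difference beforehand, and bERKO hCG replicate 3 was mostly the lowest of a high group, so values without them are given as a description and support no call. The Esr2 probe set, which encodes estrogen receptor beta, read 8.33, 8.13 and 8.52 in bERKO hCG, 8.67, 9.52 and 8.78 in WT hCG, 8.18, 8.63 and 8.12 in bERKO PMSG and 10.33, 9.01 and 9.33 in WT PMSG. Its difference between bERKO and WT was not called after hCG (-0.66, SE 0.37, adjusted p = 0.394) or after PMSG (-1.25, SE 0.37, adjusted p = 0.308). Whether its probes lie in the deleted part of the gene was not known here.

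Over the whole set, levels were highest in bERKO cells after hCG. The mean level of the 33 genes was 9.15, 9.14 and 8.19 on the bERKO hCG arrays, against 7.43, 7.86 and 7.45 on the WT hCG arrays. Without hCG it was 7.40, 7.14 and 7.88 in bERKO PMSG, against 6.65, 7.03 and 8.33 in WT PMSG. Every bERKO hCG array lay above all arrays of WT hCG and bERKO PMSG, and the lowest was below WT PMSG replicate 3. Since tissue was sampled in bulk, more cells of a type and more RNA per cell cannot be told apart.

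**Figure D1:**
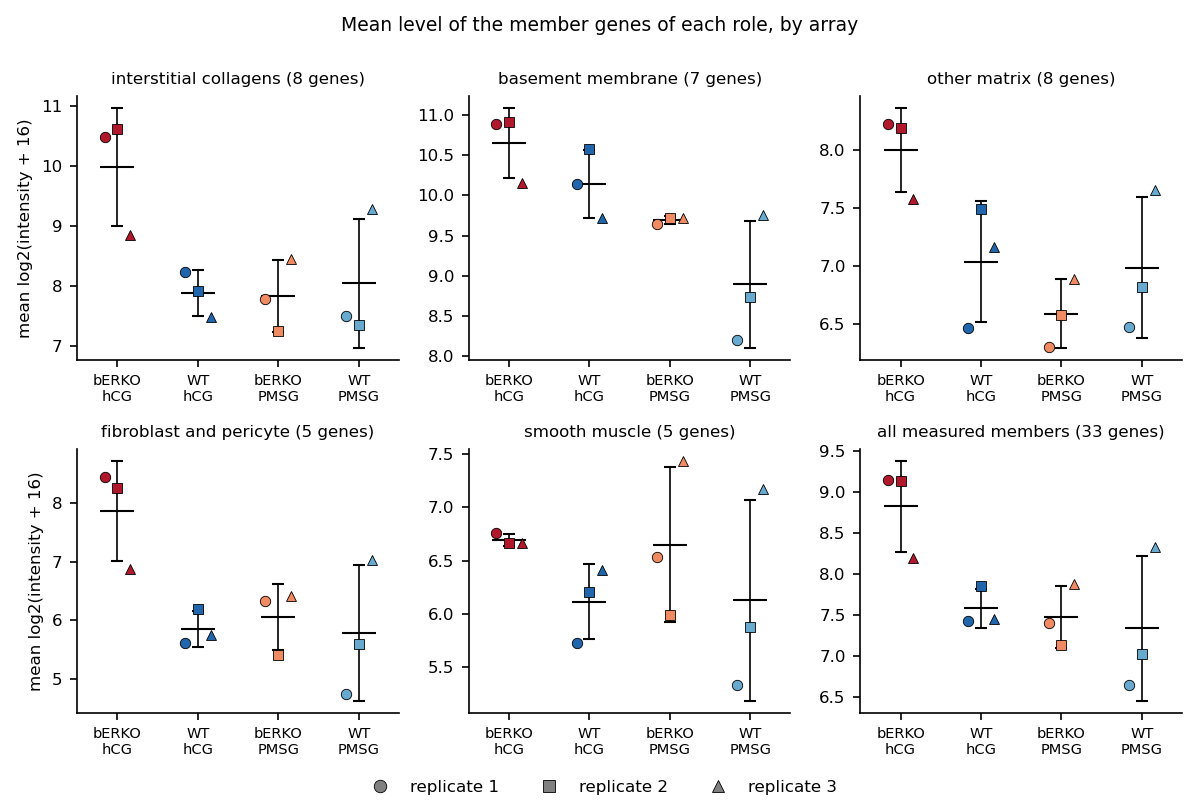
Mean log2(intensity + 16) of the measured genes of each role on each array. Symbols are replicates 1 to 3, bars are the group mean and SD (n = 3 each). The interstitial collagens read 10.48, 10.62 and 8.85 in bERKO hCG, against 8.24, 7.92 and 7.49 in WT hCG.

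In the hCG response of bERKO cells, 10 of the 33 genes rose and 2 fell, beside 19.0% of all genes called (7.06% higher and 11.9% lower). The risers were Col1a2, Col5a1, Col5a2, Col6a1, Nid1, Fn1, Sparc, Pdgfrb, Tcf21 and Rgs5, and those that fell were Lama1 and Mfap5. The median change of the 33 genes was 1.58, against -0.19 over all genes. The bERKO hCG arrays lay wholly above the bERKO PMSG arrays for 19 of them and wholly below for 2, while 13.3% and 22.9% of all genes were separated in these directions. Without WT PMSG replicate 3 and bERKO hCG replicate 3, 15 rose and 2 fell, larger counts that the choice of these arrays itself favours; without WT hCG replicate 1 and bERKO PMSG replicate 3, 8 rose and 1 fell, 7 of the 12 among them.

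In the hCG response of WT cells, Nid2 rose and no other of the 33 genes was called, beside 2.11% of all genes (0.737% higher and 1.37% lower). An unadjusted p under 0.05 was reached by 7 of the 33. Their median change was 0.03, against -0.08 over all genes. The WT hCG arrays lay wholly above the WT PMSG arrays for 3 genes and wholly below for 2, while 8.79% and 15.2% of all genes were so separated. Without WT PMSG replicate 3 and bERKO hCG replicate 3 the median was 0.49, and Col4a1 was the gene called; without those and the arrays of high Gapdh ratio, it was 0.80.

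**Figure D2:**
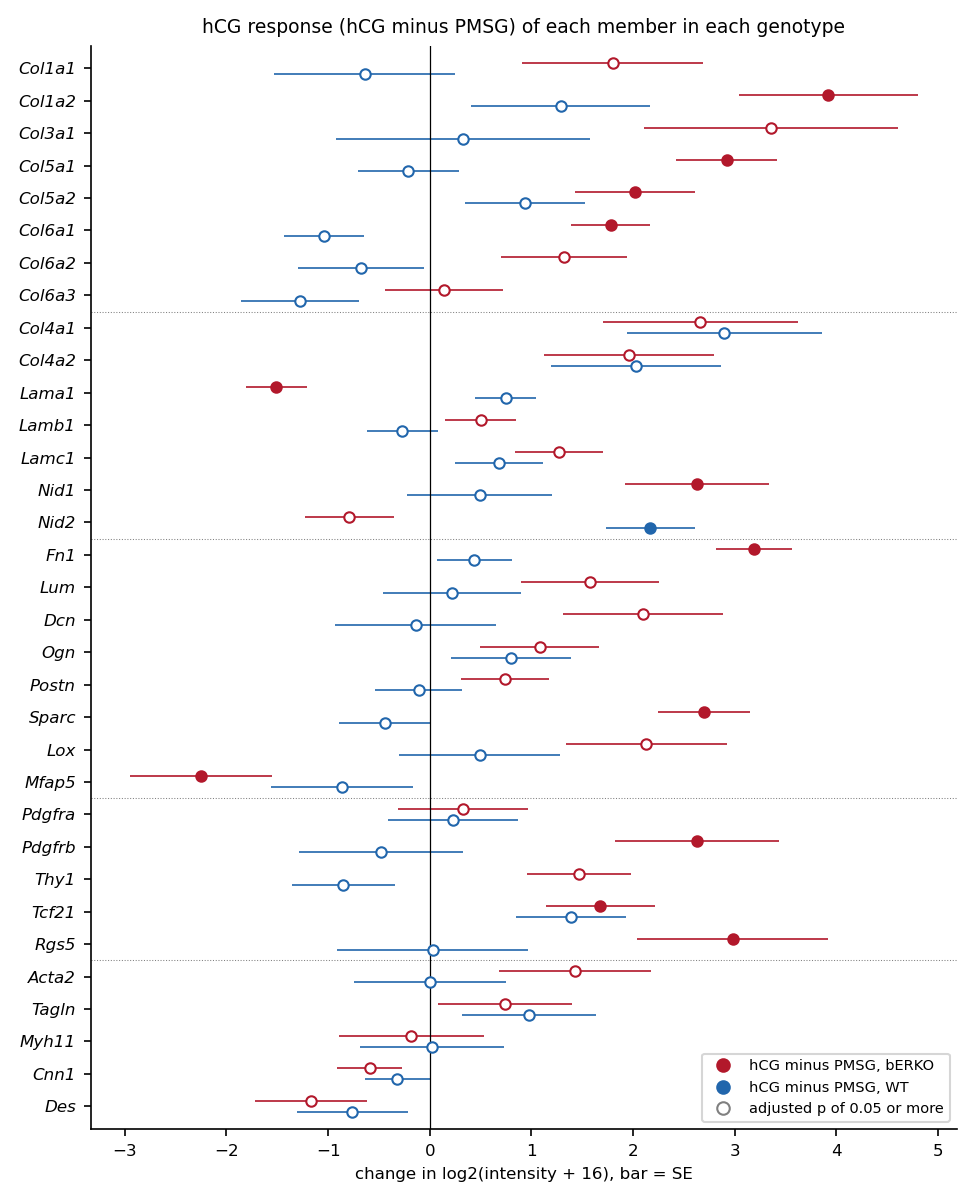
hCG response of each gene, hCG minus PMSG on the log2(intensity + 16) scale, in bERKO and in WT cells. Bars are the SE of the limma fit and filled points passed an adjusted p of 0.05. In bERKO cells 12 of the 33 points are filled and in WT cells 1.

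Between genotypes after hCG, Col5a1, Col6a1, Sparc and Thy1 were higher and Lama1 was lower in bERKO cells. These 5 calls stand beside 3.17% of all genes (1.58% higher and 1.59% lower). The median difference was 1.01, against -0.06 over all genes, and 30 of the 33 were positive. The bERKO arrays lay wholly above the WT arrays for 14 genes and wholly below for 1, while 11.4% and 13.2% of all genes were so separated. The count of calls was 10 without WT PMSG replicate 3 and bERKO hCG replicate 3 (9 higher, 4 of the 5 shared), and 3 without WT hCG replicate 1 and bERKO PMSG replicate 3.

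After PMSG alone, limma called 0 of the 33 genes between genotypes, beside 0.0110% of all genes. An unadjusted p under 0.05 was reached by 6. The median difference was 0.24, against 0.04 over all genes. The bERKO arrays lay wholly above the WT arrays for 1 gene, Nid2, and wholly below for 2, Fn1 and Sparc, while 8.14% and 6.58% of all genes were so separated.

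**Figure D3:**
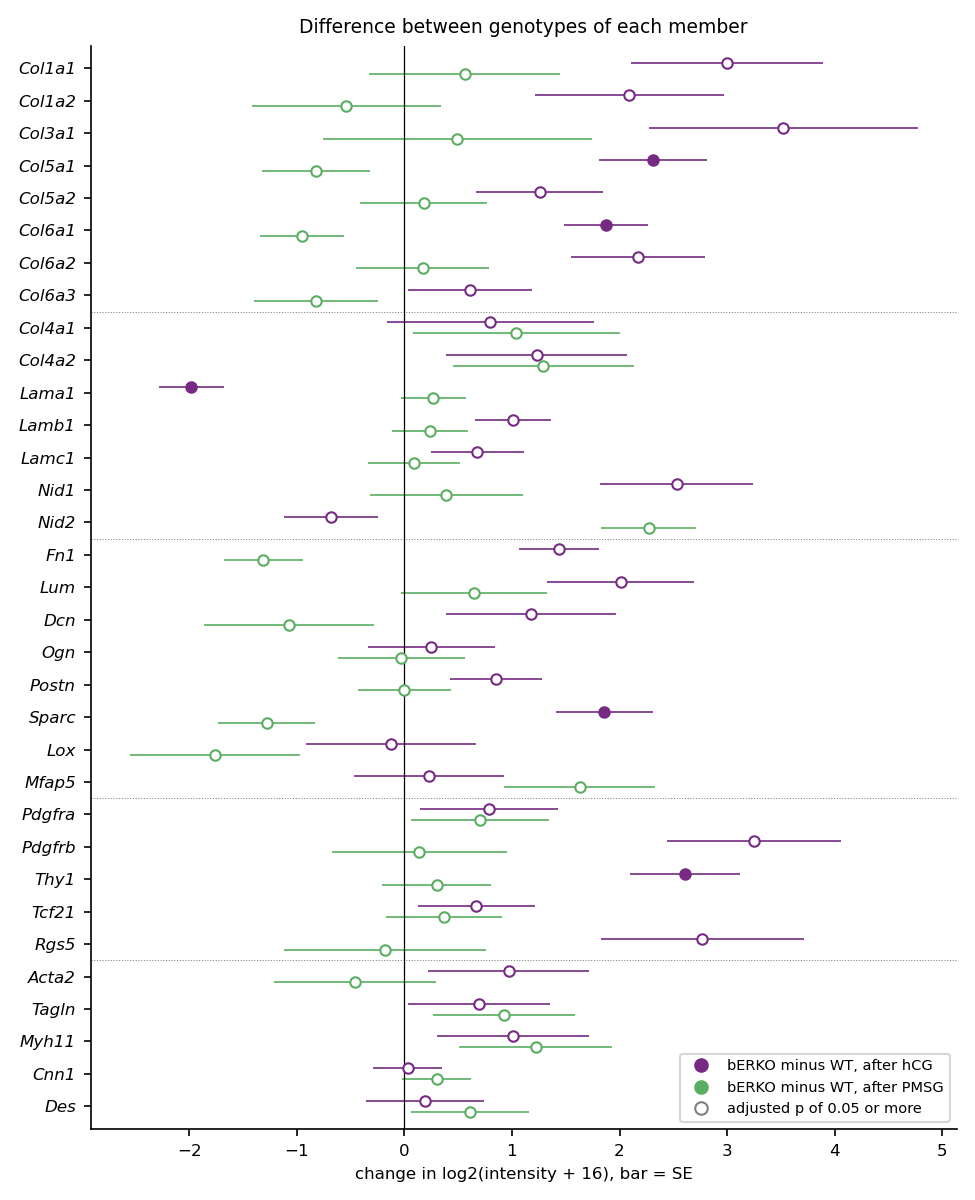
Difference between genotypes, bERKO minus WT on the log2(intensity + 16) scale, of each gene after hCG and after PMSG. Bars are the SE of the limma fit and filled points passed an adjusted p of 0.05. After hCG 5 points are filled and after PMSG 0.

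The hCG responses themselves differed between genotypes, by the interaction test, for Col6a1, Fn1 and Sparc, whose response was higher in bERKO, and for Lama1 and Nid2, which had the lower response in bERKO. These 5 calls stand beside 1.32% of all genes (0.682% higher and 0.643% lower). The median difference of responses was 1.36, against -0.11 over all genes. The calls were close to the threshold: 1 of the 33 genes was called without WT PMSG replicate 3 and bERKO hCG replicate 3 (Sparc), and 1 without WT hCG replicate 1 and bERKO PMSG replicate 3 (Col5a1). Leaving out all 4 arrays gave 0 calls by limma.

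Interstitial collagens form the fibrils and the microfibrillar network of connective tissue. In bERKO cells 4 of the 8 rose after hCG, with a median change of 1.91 and a positive change in all 8. In WT cells limma called 0 of the 8, with 2 at an unadjusted p under 0.05. The median WT change was -0.42, with 3 positive and 5 negative. WT PMSG replicate 3 was the highest of its group for 7 of the 8, which lowers their WT changes. Its median gap to its partners was 1.27, so the sign of the WT median is not secure. Between genotypes after hCG, 2 of the 8 were higher in bERKO, with a median of 2.13, and the bERKO arrays lay wholly above the WT arrays for 6. Of all genes, 1.58% were called higher and 11.4% lay wholly above in that comparison, and 7.06% were called higher in the bERKO response. The shares of all genes given above also stand beside the later counts by role, and no count was tested against them.

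Col1a2, the second chain of type I collagen, is on chromosome 6. It read 12.24, 12.38 and 10.34 in bERKO hCG, 10.18, 9.68 and 8.84 in WT hCG, 8.18, 6.72 and 8.31 in bERKO PMSG and 6.88, 7.40 and 10.55 in WT PMSG. The bERKO hCG arrays lay above all arrays of WT hCG and of bERKO PMSG, but WT PMSG replicate 3 lay above the lowest of them. Col1a2 rose by 3.92 in bERKO cells (SE 0.88, adjusted p = 0.0101); its change in WT cells was 1.29 (adjusted p = 0.517). Its 3 probe sets ran from -0.04 to 3.92 for the bERKO response, the lowest value being that of the dimmest set (mean level 5.18). The mean of the 3 sets changed by 2.16 (adjusted p = 0.0282).

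Col5a1, a chain of type V collagen, which starts and thins type I fibrils, read 10.70, 10.69 and 9.41 in bERKO hCG, 8.38, 7.98 and 7.52 in WT hCG, 7.09, 6.68 and 8.28 in bERKO PMSG and 8.05, 7.61 and 8.86 in WT PMSG. Each bERKO hCG array exceeded every other array. Col5a1 rose by 2.92 in bERKO cells (adjusted p = 0.00237) and was 2.31 higher in bERKO than in WT after hCG (SE 0.50, adjusted p = 0.0342). The genotype call was lost (adjusted p 0.0502 to 0.117) without WT PMSG replicate 1, any of the WT hCG arrays, or bERKO hCG replicate 1 or 2. The 3 probe sets of Col5a1 ran from -0.08 to 2.31 for this genotype difference, and their mean differed by 1.13 with no call (adjusted p = 0.161). The lowest value came from the dimmest set (mean level 5.69), and the remaining set gave 1.16.

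Col6a1, a chain of type VI collagen, a microfibril that surrounds cells, read 10.32, 10.47 and 9.70 in bERKO hCG, 8.85, 8.04 and 7.99 in WT hCG, 7.88, 9.15 and 8.11 in bERKO PMSG and 9.61, 9.46 and 8.93 in WT PMSG. Again bERKO hCG held the 3 highest of the 12 arrays, and WT hCG lay wholly below WT PMSG. Col6a1 rose by 1.78 in bERKO cells (adjusted p = 0.00897), changed by -1.04 in WT cells (adjusted p = 0.2), and was 1.87 higher in bERKO than in WT after hCG (SE 0.39, adjusted p = 0.0301). The 2 responses differed by 2.82 (SE 0.56, adjusted p = 0.0355). The genotype call was lost (adjusted p 0.0689 to 0.102) without WT hCG replicate 2 or 3 or bERKO hCG replicate 1 or 2. The call of the difference of responses was lost (adjusted p 0.0567 to 0.0948) without any of the WT PMSG arrays, bERKO PMSG replicate 1 or 3, WT hCG replicate 2, or bERKO hCG replicate 1 or 2.

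Col5a2, the partner chain of Col5a1, read 9.51, 9.57 and 8.06 in bERKO hCG, 8.29, 7.62 and 7.44 in WT hCG, 8.06, 6.58 and 6.44 in bERKO PMSG and 5.91, 6.77 and 7.85 in WT PMSG. The lowest bERKO hCG array and the highest bERKO PMSG array rounded to the same level. Col5a2 rose by 2.02 in bERKO cells (adjusted p = 0.0334), a call lost (adjusted p 0.0946 to 0.113) without bERKO PMSG replicate 2 or 3 or bERKO hCG replicate 1 or 2. The other 4 interstitial collagens were not called in any comparison with the probe sets used. With the mean of all probe sets, Col1a1, Col3a1 and Col6a2 were called higher in the bERKO response. Col1a1 and Col6a2 were then also called between genotypes after hCG. Col1a1, the main chain of type I collagen, changed by 1.80 in bERKO cells and was 3.00 higher in bERKO after hCG (adjusted p = 0.0952). Col3a1, the type III chain found in pliable tissue, changed by 3.36 in bERKO cells (adjusted p = 0.0836). Its genotype difference after hCG was 3.52, with an SE of 1.25. Col6a2 differed by 2.17 between genotypes after hCG (adjusted p = 0.086). Col6a3 differed by 0.61 (adjusted p = 0.669).

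**Figure D4:**
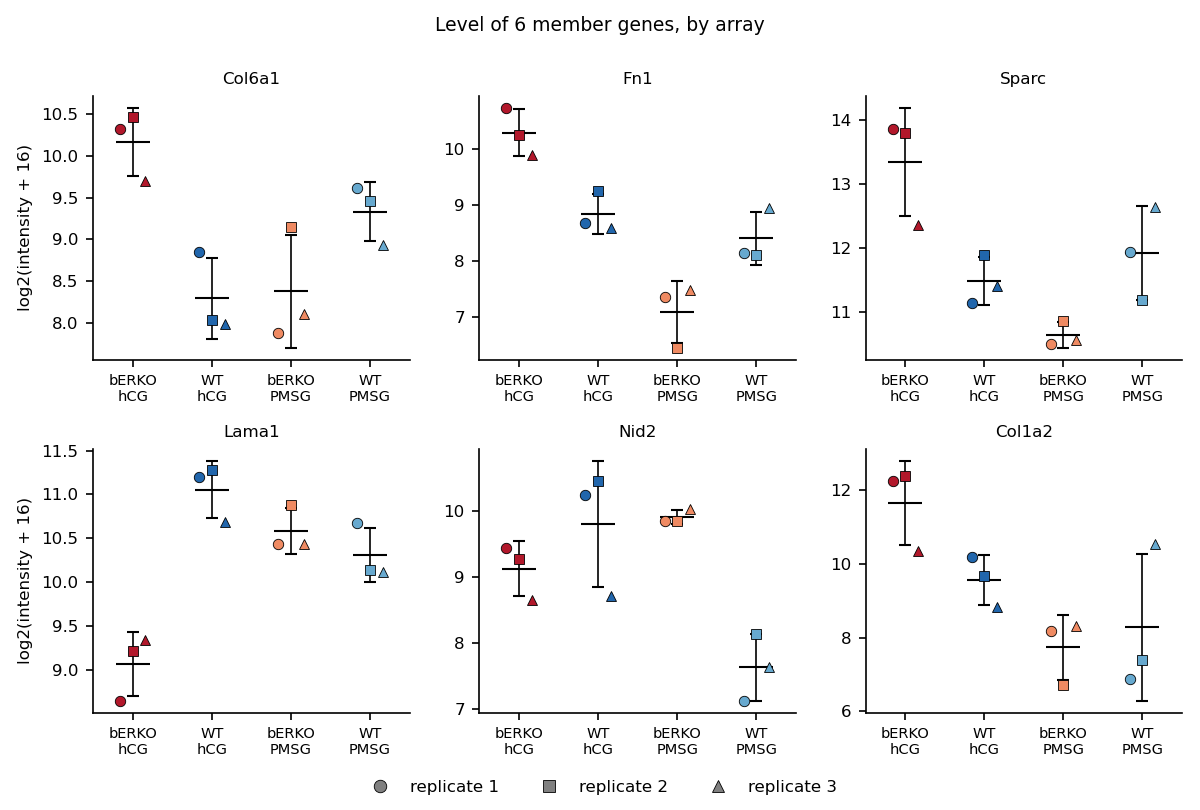
Level of Col6a1, Fn1, Sparc, Lama1, Nid2 and Col1a2 on each array, as log2(intensity + 16). Symbols are replicates 1 to 3, bars are the group mean and SD (n = 3 each). The bERKO hCG arrays are the 3 highest for Col6a1 and Fn1 and the 3 lowest for Lama1.

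The upstream sequences shown here belong to Col1a2, Col6a1 and Sparc, which rose in bERKO cells under every setting tried and whose upstream window met no other gene record. Col5a1, which also rose under every setting and had a window, is not printed. RefSeq windows (build GRCm38.p6) were found for 20 of the 34 genes, 19 of them measured, and the 250 bases before the start were read. Capitals mark matches, on either strand, of the motifs CCAAT (the NF-Y box), GGGCGG (GC box), TATAAA (the AT-rich box of core promoters), TGANTCA (AP-1), TGACGTCA and TGACG (cAMP response element and its core, so that a match of the longer one holds the shorter), and of the palindromic estrogen response element with 3 free bases in its middle. The windows lie at chr6:4505368-4505617 on the plus strand, chr10:76726045-76726294 on the minus strand and chr11:55420081-55420330 on the minus strand, each printed 5′ to 3′ along its gene.
Col1a2: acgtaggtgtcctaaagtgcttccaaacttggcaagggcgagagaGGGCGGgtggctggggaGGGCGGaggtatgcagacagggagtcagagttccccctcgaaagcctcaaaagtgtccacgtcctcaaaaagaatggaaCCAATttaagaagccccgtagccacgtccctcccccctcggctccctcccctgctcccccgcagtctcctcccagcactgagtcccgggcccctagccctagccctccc
Col6a1: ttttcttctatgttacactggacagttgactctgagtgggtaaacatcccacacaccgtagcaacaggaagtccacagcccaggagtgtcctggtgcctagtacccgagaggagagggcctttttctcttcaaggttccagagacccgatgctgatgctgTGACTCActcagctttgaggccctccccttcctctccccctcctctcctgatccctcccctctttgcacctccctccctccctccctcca
Sparc: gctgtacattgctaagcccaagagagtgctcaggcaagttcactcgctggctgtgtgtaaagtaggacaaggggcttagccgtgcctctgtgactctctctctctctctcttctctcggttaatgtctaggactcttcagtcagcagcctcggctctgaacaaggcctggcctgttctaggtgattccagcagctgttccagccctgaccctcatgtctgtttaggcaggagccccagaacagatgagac

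Col1a2 held CCAAT and GGGCGG, Col6a1 held TGANTCA, and Sparc held none of the 7 motifs. Over the 19 windows, CCAAT was in 7, GGGCGG in 7, TATAAA in 2, TGANTCA in 1 and TGACG in 1. Over all 32851 RefSeq windows of the same length the shares were 33.8%, 32.7%, 12.4%, 6.75% and 17.8%. TGACGTCA and the estrogen response element were in 0 of the 19 windows, and in 1.55% and 0.0639% of all windows. A match describes letters in a window and no site of binding.

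Basement membrane genes went in both directions. After hCG, 1 of the 7 rose and 1 fell in bERKO cells, and 1 rose in WT cells. The median changes were 1.27 in bERKO cells and 0.75 in WT cells, and the median difference of responses was -0.07.

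Lama1, the alpha chain of the classical laminin trimer, read 8.65, 9.21 and 9.34 in bERKO hCG, 11.20, 11.28 and 10.68 in WT hCG, 10.43, 10.88 and 10.43 in bERKO PMSG and 10.67, 10.14 and 10.12 in WT PMSG. Here bERKO hCG held the 3 lowest of the 12 arrays, and WT hCG lay wholly above WT PMSG. After hCG, Lama1 was lower in bERKO than in WT by 1.98 on the log2 scale (-1.98, SE 0.30, adjusted p = 0.00771), a call kept without each of the 12 arrays in turn and lost (adjusted p = 0.0637) without the 4 arrays named above together. It fell by 1.51 in bERKO cells (adjusted p = 0.0049), and its change in WT cells was 0.75 (adjusted p = 0.222). The responses differed by -2.26 (SE 0.42, adjusted p = 0.0284). That last call was lost (adjusted p 0.0506 to 0.077) when replicate 1 or 2 of bERKO hCG, WT hCG or bERKO PMSG, or replicate 2 or 3 of WT PMSG, was left out.

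Nid2, one of the nidogens that link laminin to type IV collagen, read 9.44, 9.27 and 8.65 in bERKO hCG, 10.24, 10.45 and 8.71 in WT hCG, 9.84, 9.85 and 10.03 in bERKO PMSG and 7.13, 8.14 and 7.63 in WT PMSG. WT PMSG was the low group, and all arrays of the other groups lay above it. Nid2 rose by 2.17 in WT cells (SE 0.44, adjusted p = 0.0324) and changed by -0.79 in bERKO cells (adjusted p = 0.246). The responses differed by -2.95 (SE 0.63, adjusted p = 0.0447). After PMSG alone it differed by 2.27 between bERKO and WT (adjusted p = 0.135), which became a call (adjusted p = 0.0375) without WT hCG replicate 3. The WT call was lost (adjusted p 0.0554 to 0.133) without any of the WT PMSG arrays, WT hCG replicate 1 or 2, or bERKO hCG replicate 2. The call of the difference of responses was lost (adjusted p 0.0548 to 0.104) without any array other than WT hCG replicate 3.

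Nid1, the other nidogen, read 11.11, 11.04 and 9.32 in bERKO hCG, 7.61, 8.47 and 7.80 in WT hCG, 7.07, 7.38 and 9.12 in bERKO PMSG and 6.38, 7.15 and 8.86 in WT PMSG. All bERKO hCG arrays exceeded every other array. Nid1 rose by 2.63 in bERKO cells (adjusted p = 0.0243), a call lost (adjusted p 0.0703 to 0.0862) without bERKO PMSG replicate 1 or 2 or bERKO hCG replicate 1 or 2. Its 3 probe sets ran from -0.41 to 3.78 for that response. The negative value came from a dim set (mean level 5.07), and the brighter sets gave 2.63 and 3.78.

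Type IV collagen chains had positive changes in both genotypes, none of them called over the 12 arrays with the probe sets used. Col4a1 read 13.26, 13.16 and 12.13 in bERKO hCG, 12.05, 12.70 and 11.42 in WT hCG, 10.29, 10.86 and 9.43 in bERKO PMSG and 7.32, 8.09 and 12.05 in WT PMSG. WT PMSG replicates 1 and 2 were far below the rest, while replicate 3 of that group was at the level of the hCG arrays. Its change was 2.66 in bERKO cells (adjusted p = 0.0767) and 2.90 in WT cells (adjusted p = 0.146). Without WT PMSG replicate 3, an array named for standing apart, the WT change was 4.35 and was called (adjusted p = 0.023). Col4a2 changed by 1.96 in bERKO cells and 2.03 in WT cells. By the first RefSeq window of each gene, its start lies 21 bases inside Col4a1, on the opposite strand of chromosome 8. Their difference of responses was -0.24 for Col4a1 (SE 1.36), whose other probe set gave 1.42, and -0.07 for Col4a2 (SE 1.18).

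Lamb1, the laminin beta chain, read 12.13, 11.84 and 10.95 in bERKO hCG, 11.07, 10.32 and 10.51 in WT hCG, 11.13, 11.01 and 11.29 in bERKO PMSG and 10.45, 11.19 and 11.09 in WT PMSG. The groups overlapped in each comparison. Its difference between bERKO and WT after hCG was 1.01 (adjusted p = 0.151). Lamc1, the laminin gamma chain, changed by 1.27 in bERKO cells (adjusted p = 0.0607), with the bERKO hCG arrays wholly above the bERKO PMSG arrays.

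Among the other matrix genes, 2 of the 8 measured rose and 1 fell in bERKO cells after hCG, and limma called 0 in WT cells, with 0 at an unadjusted p under 0.05. The median changes were 1.84 in bERKO cells and 0.06 in WT cells. Fn1 encodes fibronectin, which cells assemble into fibrils through integrins. It read 10.72, 10.25 and 9.88 in bERKO hCG, 8.68, 9.25 and 8.59 in WT hCG, 7.35, 6.45 and 7.47 in bERKO PMSG and 8.14, 8.11 and 8.94 in WT PMSG. Of the 12 arrays, bERKO hCG held the 3 highest and bERKO PMSG the 3 lowest. Fn1 rose by 3.19 in bERKO cells (SE 0.37, adjusted p = 0.000339), and its change in WT cells was 0.44 (adjusted p = 0.615). The responses differed by 2.75 (SE 0.53, adjusted p = 0.0333). That call was lost (adjusted p 0.0527 to 0.0822) without any of the WT PMSG arrays, bERKO PMSG replicate 1, WT hCG replicate 1, or bERKO hCG replicate 1 or 2. After PMSG alone Fn1 differed by -1.31 (adjusted p = 0.299), and after hCG by 1.44 (adjusted p = 0.0601).

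Sparc, a secreted collagen-binding glycoprotein, read 13.85, 13.79 and 12.36 in bERKO hCG, 11.14, 11.88 and 11.41 in WT hCG, 10.49, 10.86 and 10.56 in bERKO PMSG and 11.94, 11.18 and 12.64 in WT PMSG. The bERKO PMSG arrays were the 3 lowest, and bERKO hCG lay wholly above WT hCG. Sparc rose by 2.70 in bERKO cells (SE 0.45, adjusted p = 0.00208) and was 1.86 higher in bERKO than in WT after hCG (adjusted p = 0.0497). The responses differed by 3.14 (SE 0.64, adjusted p = 0.0399). The genotype call was lost (adjusted p 0.0502 to 0.166) without any array other than WT PMSG replicate 3 or bERKO hCG replicate 3. The call of the difference of responses was lost (adjusted p 0.0521 to 0.0988) without any array other than WT PMSG replicate 2 or bERKO hCG replicate 3. The 3 probe sets of Sparc ran from -0.12 to 2.90 for the bERKO response, from -0.44 to 1.86 for the genotype difference after hCG and from -0.35 to 3.14 for the difference of responses. Each negative value came from a dim set (mean level 4.72). The other bright set (mean level 11.32) gave 2.90, 1.79 and 2.95, close to the set used. With the mean of all 3 sets, the genotype difference and the difference of responses were not called, at 1.07 (adjusted p = 0.143) and 1.91 (adjusted p = 0.0937).

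Mfap5, a microfibril protein of elastic fibres, read 4.21, 4.68 and 5.95 in bERKO hCG, 4.18, 4.41 and 5.55 in WT hCG, 5.68, 7.67 and 8.25 in bERKO PMSG and 6.0, 4.60 and 6.12 in WT PMSG. The bERKO groups overlapped, and several arrays were close to the floor. Mfap5 fell by 2.25 in bERKO cells (adjusted p = 0.0423). The size of its change depended on the offset, at -3.39 with an offset of 1 (adjusted p = 0.0899) and -1.34 with 64. That call was lost (adjusted p 0.0511 to 0.142) when bERKO PMSG replicate 2 or 3, bERKO hCG replicate 1 or 2, WT hCG replicate 2, or WT PMSG replicate 1 or 3 was left out. The small leucine-rich proteoglycans and the remaining matrix genes were not called with the probe sets used. In bERKO cells the changes were 1.58 for Lum (lumican), 2.10 for Dcn (decorin), 1.08 for Ogn (osteoglycin), 0.74 for Postn (periostin) and 2.13 for Lox, the lysyl oxidase that crosslinks collagen. Their adjusted p ran from 0.0833 for Lox to 0.254 for Postn. The other probe set of Dcn, a dim one (mean level 5.16), gave -0.22. Lum was dim, at 4.04 to 7.79 over the arrays with a mean level of 5.25. Lum differed by 2.01 between bERKO and WT after hCG (adjusted p = 0.14), and the Lox difference after PMSG was -1.76 (adjusted p = 0.51). That Lox value depended on the probe set. A set almost as bright (mean level 6.46, against 6.69 for the set used) gave -0.02, and a dim set (mean level 4.60) gave -0.46. For the bERKO response of Lox these sets gave 2.09 and -0.03.

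Of the 5 fibroblast and pericyte genes, 3 rose in bERKO cells after hCG, with a median change of 1.68, and limma called 0 in WT cells, with 1 at an unadjusted p under 0.05 and a median change of 0.03. Pdgfrb, the PDGF receptor of pericytes, read 9.26, 9.41 and 7.45 in bERKO hCG, 5.63, 5.74 and 5.01 in WT hCG, 7.29, 5.43 and 5.51 in bERKO PMSG and 4.67, 5.29 and 7.86 in WT PMSG. No bERKO hCG array overlapped WT hCG or bERKO PMSG. Pdgfrb rose by 2.63 in bERKO cells (adjusted p = 0.0406), and its genotype difference after hCG was 3.25 (SE 0.81, adjusted p = 0.0527). Its 2 probe sets gave 0.48 and 2.63 for the bERKO response and 1.52 and 3.25 for the genotype difference, and their mean changed by 1.56 in bERKO cells with no call (adjusted p = 0.179). The call in bERKO cells was lost (adjusted p 0.0503 to 0.132) without WT PMSG replicate 2, bERKO PMSG replicate 2 or 3, any of the WT hCG arrays, or bERKO hCG replicate 1 or 2.

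Rgs5, a regulator of G-protein signalling that marks pericytes, read 9.70, 9.52 and 7.60 in bERKO hCG, 5.22, 7.08 and 6.19 in WT hCG, 6.69, 4.79 and 6.40 in bERKO PMSG and 4.07, 6.22 and 8.13 in WT PMSG. bERKO hCG lay wholly above WT hCG and bERKO PMSG, and WT PMSG had the widest spread. Rgs5 rose by 2.98 in bERKO cells (adjusted p = 0.0463), and its 4 probe sets ran from 1.33 to 2.98. The call was lost (adjusted p 0.0527 to 0.142) without WT PMSG replicate 2, any of the bERKO PMSG arrays, WT hCG replicate 2 or 3, or bERKO hCG replicate 1 or 2.

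Thy1, a surface glycoprotein of fibroblasts and other cells, read 7.46, 6.38 and 6.67 in bERKO hCG, 4.41, 4.13 and 4.12 in WT hCG, 5.85, 4.45 and 5.80 in bERKO PMSG and 4.25, 4.81 and 6.14 in WT PMSG. The WT hCG arrays were close to the floor, and bERKO hCG lay above every other array. Thy1 was 2.61 higher in bERKO than in WT after hCG (SE 0.51, adjusted p = 0.0218). With the WT hCG arrays at the floor the size depended on the offset, at 4.87 with an offset of 1 and 1.30 with 64. The call was lost (adjusted p 0.0513 to 0.0879) without WT hCG replicate 1 or 2 or any of the bERKO hCG arrays. Tcf21, a transcription factor of stromal progenitors, read 7.10, 7.50 and 5.76 in bERKO hCG, 6.16, 6.02 and 6.19 in WT hCG, 4.34, 5.69 and 5.29 in bERKO PMSG and 4.21, 4.19 and 5.80 in WT PMSG. In each genotype the hCG arrays lay above the PMSG arrays. Tcf21 rose by 1.68 in bERKO cells (adjusted p = 0.049), and its change in WT cells was 1.39 (adjusted p = 0.21). Its 2 probe sets gave -0.55 and 1.68 for the bERKO response, and their mean was not called (0.57, adjusted p = 0.219). Both sets were dim, at mean levels of 5.04 and 5.69. With an offset of 64 the change was 0.96. The call was lost (adjusted p 0.0556 to 0.169) without any array other than WT PMSG replicate 3, bERKO PMSG replicate 2 or bERKO hCG replicate 3.

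Pdgfra, the PDGF receptor of fibroblasts and theca cells, read 8.75, 8.53 and 6.92 in bERKO hCG, 6.65, 8.0 and 7.17 in WT hCG, 7.45, 6.68 and 9.09 in bERKO PMSG and 6.44, 7.46 and 7.24 in WT PMSG. All groups overlapped. Its change in bERKO cells was 0.33 (adjusted p = 0.778).

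Of the 5 smooth muscle genes, limma called 0 in any of the 5 comparisons, and 0 reached an unadjusted p under 0.05. Their median change was -0.18 in bERKO cells and 0.00 in WT cells, and their median difference after hCG was 0.69. Acta2, smooth muscle actin, read 10.20, 10.19 and 9.54 in bERKO hCG, 8.70, 8.77 and 9.56 in WT hCG, 8.53, 7.62 and 9.48 in bERKO PMSG and 6.94, 9.68 and 10.39 in WT PMSG. Narrowly, bERKO hCG lay above the bERKO PMSG arrays, and WT PMSG spanned the range of all groups. Acta2 changed by 1.43 in bERKO cells (adjusted p = 0.212), and its 3 probe sets ran from -0.68 to 1.43. The sets other than the one used were dim, at mean levels of 4.56 and 4.72. Tagln (transgelin, an actin-binding protein) changed by 0.74 and Myh11 (smooth muscle myosin) by -0.18 in bERKO cells. Des (desmin, an intermediate filament) changed by -1.17 there (adjusted p = 0.167). Cnn1 (calponin) was near the floor on every array, between 4.10 and 5.50.

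Array by array, WT PMSG replicate 3 was the highest of its group for 24 of the 33 genes (72.7%, against 32.5% of all genes). bERKO hCG replicate 3 was the lowest of its group for 24 (72.7%, against 40.0% of all genes). Both held for 19 (57.6%, against 14.2%). The median gap between WT PMSG replicate 3 and the mean of its 2 partners was 1.51 for the 33 genes and -0.01 for all genes. For bERKO hCG replicate 3 it was -1.08 and -0.05.

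By role, the counts were as follows. Among the interstitial collagens WT PMSG replicate 3 was highest for 7 of 8 and bERKO hCG replicate 3 lowest for 8 of 8. Col3a1 had gaps of 4.87 and -2.85, Col1a2 of 3.41 and -1.97, and Col1a1 of 3.17 and -1.57. Col6a1 was the exception, at -0.60 and -0.70. Among the basement membrane genes the counts were 3 and 5 of 7. Col4a1 (4.34 and -1.08), Col4a2 (3.21 and -1.81) and Nid1 (2.10 and -1.76) showed the collagen pattern, whereas Lama1 (-0.29 and 0.41), Lamc1 (-0.62 and 0.70) and Nid2 (-0.01 and -0.70) did not. Among the smooth muscle genes WT PMSG replicate 3 was highest for 4 of 5 and bERKO hCG replicate 3 lowest for 1 of 5. bERKO PMSG replicate 3, with its high Gapdh ratio, was the highest of its group for 18 of the 33 genes (54.5%, against 40.3% of all genes).

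Further lists held other genes of the matrix. Their counts stand beside the 7.06% of all genes called higher and 11.9% called lower in the bERKO response, and no count was tested against those shares. Of 9 other fibrillar and fibril-associated collagens, 1 rose and 2 fell in bERKO cells after hCG, and the median change was 0.41. Between genotypes after hCG 1 was higher and 2 were lower in bERKO, with a median of -0.27, against 2.13 for the 8 interstitial collagens. Col24a1 rose by 3.51 (adjusted p = 0.000746) and Col27a1 fell by 1.61 (adjusted p = 0.00837). Col11a1, a minor fibril collagen, read 9.58, 8.05 and 8.67 in bERKO hCG, 12, 12.24 and 11.06 in WT hCG, 11.18, 10.23 and 10.31 in bERKO PMSG and 8.16, 10.04 and 8.48 in WT PMSG. WT hCG lay wholly above bERKO hCG and WT PMSG. Col11a1 fell by 1.81 in bERKO cells (adjusted p = 0.0391), rose by 2.87 in WT cells (adjusted p = 0.0256), and the responses differed by -4.68 (SE 0.78, adjusted p = 0.0172).

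Of 18 collagen processing genes, 2 rose and 1 fell in bERKO cells (median 0.23). Plod2, a lysyl hydroxylase, rose by 1.12 in bERKO cells (adjusted p = 0.00843) and by 1.23 in WT cells (adjusted p = 0.0288), and Bmp1, a procollagen protease, rose by 1.69 in bERKO cells. P4ha2, a prolyl hydroxylase, fell by 1.18 there. Of 16 other basement membrane genes 1 rose, Col15a1 (2.88, adjusted p = 0.0203). Of 17 elastic fibre and proteoglycan genes 2 rose and 1 fell. Vcan, the large proteoglycan versican, rose by 2.25 (adjusted p = 0.00249), Ltbp1 rose by 1.67 and Omd fell by 2.70. Of 11 matricellular genes 2 rose, Tnc (4.02, adjusted p = 0.00242) and Tgfbi (2.49, adjusted p = 0.0493), while Thbs2 fell by 2.17 in WT cells (adjusted p = 0.0256).

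Of 17 matrix receptors, 4 rose and 2 fell in bERKO cells, with a median change of 0.27. Itga2, the integrin alpha chain of a collagen receptor, read 12.64, 12.66 and 13.30 in bERKO hCG, 9.39, 11.55 and 12.31 in WT hCG, 7.40, 8.10 and 6.5 in bERKO PMSG and 8.51, 8.90 and 7.84 in WT PMSG. In each genotype the hCG arrays lay wholly above the PMSG arrays. It rose by 5.53 in bERKO cells (SE 0.65, adjusted p = 0.000366), its change in WT cells was 2.66 (adjusted p = 0.062), and the difference of responses was not called (2.87, adjusted p = 0.162). Itgb3 rose by 2.92, Itga5, the fibronectin receptor chain, by 1.26, and the syndecan Sdc1 by 1.49. Itgb3 was also 2.22 higher in bERKO than in WT after hCG (adjusted p = 0.0294). Of 14 further contractile and regulatory genes, 2 rose and 1 fell in bERKO cells. Vcl (vinculin) rose by 1.94 and Tpm1 (tropomyosin) by 1.40, whereas Myocd, the coactivator of smooth muscle genes, fell by 2.81 (adjusted p = 0.00169). Between genotypes after hCG, each of these lists other than the fibrillar collagens had at most 1 gene called in each direction.

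The mean levels of endothelial and other pericyte markers were highest in bERKO cells after hCG, as for the stromal genes. The mean level of 12 endothelial markers was 6.77 to 7.65 in bERKO hCG, against 5.50 to 5.72 in WT hCG, 5.44 to 5.88 in bERKO PMSG and 5.62 to 6.24 in WT PMSG. Of the 12, 4 were higher in bERKO than in WT after hCG, led by Emcn (2.56, adjusted p = 0.00632) and Cdh5 (3.04, adjusted p = 0.0102), with Flt1 (1.56) and Kdr (2.57). In bERKO cells 5 rose after hCG. Of all genes, 1.58% were called higher and 1.59% lower between genotypes after hCG. In the bERKO response these shares were 7.06% and 11.9%. WT PMSG replicate 3 was highest and bERKO hCG replicate 3 lowest for 8 of 12 each, against 32.5% and 40.0% of all genes. The same shares stand beside the counts of the marker lists that follow, and no count was tested against them. Vwf was near the floor on all arrays. The mean level of 6 other pericyte markers was 7.0 to 7.63 in bERKO hCG, 5.93 to 6.29 in WT hCG, 4.84 to 5.45 in bERKO PMSG and 5.28 to 6.49 in WT PMSG. WT PMSG replicate 3 was highest for 4 of these 6, bERKO hCG replicate 3 was lowest for 3, and both held for 1. Of these 6, 4 rose in bERKO cells: Abcc9 (4.61), Kcnj8 (3.74), Notch3 (2.27) and Mcam (2.15). Abcc9, Mcam and Notch3 started close to the floor, at mean levels of 4.37, 4.65 and 4.71 in bERKO PMSG. Abcc9 was also higher after hCG in WT cells, without overlap or a call (mean levels 7.39 and 5.42). Cspg4 and Anpep were not called in bERKO cells. Anpep went the other way between genotypes after hCG. Its bERKO arrays lay wholly below the WT arrays (mean levels 4.97 and 5.87, difference -0.90).

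The mean level of 12 leukocyte markers was 6.17 to 7.27 in bERKO hCG, 5.71 to 5.83 in WT hCG, 5.38 to 6.30 in bERKO PMSG and 5.33 to 6.18 in WT PMSG. Of these, Cd52 (1.83) and Lyz2 (2.08) rose in bERKO cells, Adgre1 was near the floor, and bERKO hCG replicate 3 was the lowest of its group for 10 of 12. The mean level of 10 granulosa markers was 11.32 to 11.51 in bERKO hCG, against 12.09 to 12.23 in WT hCG, 11.95 to 12.22 in bERKO PMSG and 12.21 to 12.44 in WT PMSG. After hCG Fshr (-2.62, adjusted p = 0.0204) and Foxl2 (-1.70, adjusted p = 0.0342) were lower in bERKO than in WT. Of the 10 differences, 7 were negative and 3 positive, with a median of -0.59. The positive ones were Amh, Inha and Inhba. Mean levels were 14.28 in bERKO hCG and 14.24 in WT hCG for Inha, and 14.79 and 14.78 for Inhba. WT PMSG replicate 3 was highest for 1 of the 10 granulosa markers and bERKO hCG replicate 3 lowest for 2.

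**Figure D5:**
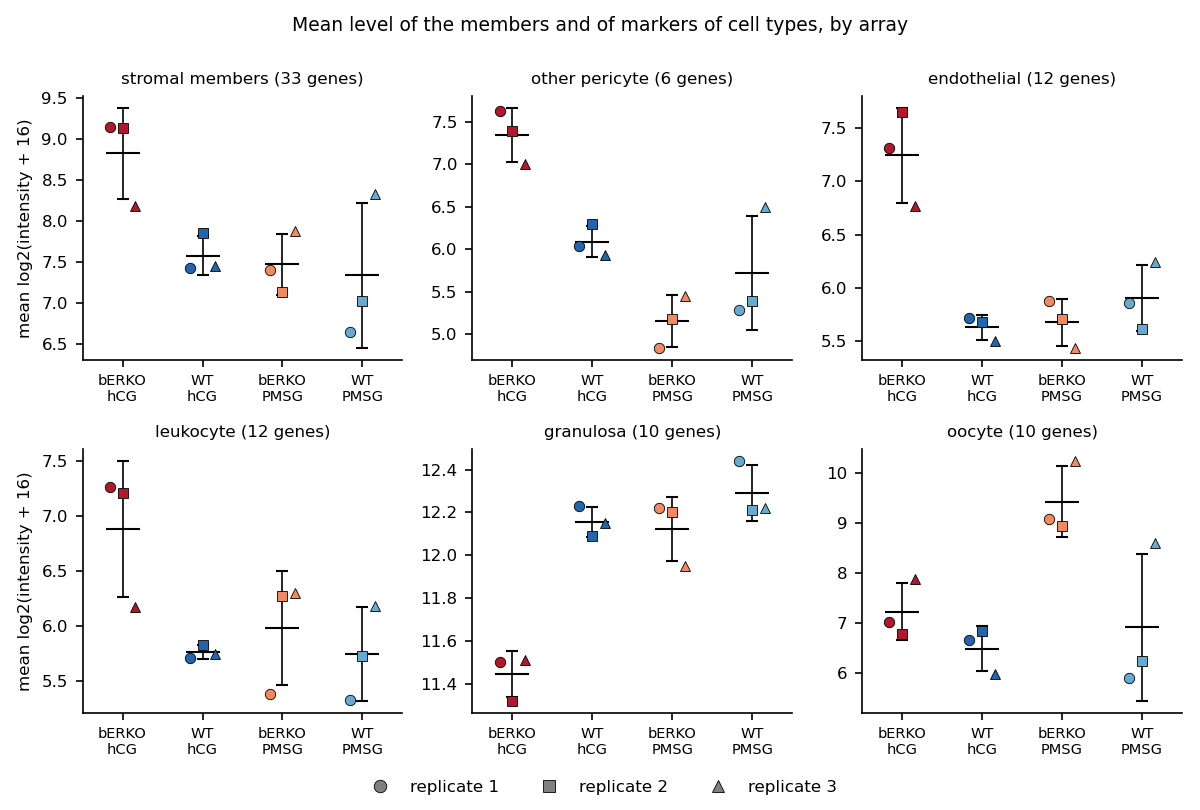
Mean log2(intensity + 16) of the 33 stromal, collagen and smooth muscle genes and of marker lists of cell types on each array. Symbols are replicates 1 to 3, bars are the group mean and SD (n = 3 each). Endothelial markers were at 6.77 to 7.65 in bERKO hCG and at 5.50 to 5.72 in WT hCG, and granulosa markers at 11.32 to 11.51 and 12.09 to 12.23.

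Theca markers went in both directions. Of 7 measured, 1 rose and 2 fell in bERKO cells after hCG, with a median of -0.12. The riser was Star, which luteinizing granulosa cells also express, and Cyp17a1, the androgen-producing enzyme of theca, read 6.84, 7.84 and 8.0 in bERKO hCG and 7.53, 8.08 and 8.23 in WT hCG. Gli1 was near the floor. The mean level of 10 oocyte markers was 6.79 to 7.88 in bERKO hCG, 5.98 to 6.84 in WT hCG, 8.94 to 10.23 in bERKO PMSG and 5.91 to 8.59 in WT PMSG. After PMSG all 10 had a positive difference between bERKO and WT, with a median of 2.41, and limma called 0, with 9 at an unadjusted p under 0.05. In bERKO cells 5 of the 10 fell after hCG, the group compared being this high bERKO PMSG group, and WT PMSG replicate 3 was the highest of its group for 9 of 10. Of 7 surface epithelium markers and 3 erythrocyte markers, limma called 0 in each comparison, and at most 1 of either list reached an unadjusted p under 0.05. The part of vessel, leukocyte or oocyte RNA in the stromal differences was not tested.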

How the data were processed

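Transcripts were measured on 12 one-colour Affymetrix mouse arrays, 4 groups of 3. Per the labels' protocols, cells were laser-captured, RNA was isolated with PicoPure, and 25 ng was amplified with NuGEN Ovation Pico WTA and biotinylated. The deposited table holds a linear intensity for each probe set, which the authors had scaled to a 2% trimmed mean of 500.0 on every array, as the values show; no source used here names the software.

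Of 45101 probe sets, 64 controls were left out. Gene names came from the platform table: 34945 probe sets named 1 gene, 932 named several and 9160 were unlisted. Array medians ran from 6.02 to 7.0, so log2(intensity + 16) of the deposited values was quantile normalized over 45037 probe sets. No dim-gene filter was applied. Group means were fitted over all 12 arrays with limma 3.58.1 (R 4.3.3) for 5 comparisons, with eBayes and Benjamini-Hochberg adjustment over 18193 genes. The number of arrays limits the precision. The fit was tested on simulated data. Figures used Python 3.11.15 and matplotlib 3.10.9.

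The 34 genes and the 15 other lists (181 genes, 169 measured) were chosen with earlier results of these data known, so no list was given a p-value. Every measured gene of the 34 is named. Values per array are given for called genes, the 4 smallest p per comparison, and the highest-mean gene of each role. Other lists give up to 4 called genes per comparison; Col11a1, Itga2, Cyp17a1 and Esr2 values per array, and some of the other genes named, were chosen after their values were seen. Alternatives were other scalings, offsets of 1 and 64, a filter (level above 7 on 3 arrays), mean of probe sets, a replicate block, array weights, fewer groups and fewer arrays.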

Additional observations from a re-analysis of the deposited data

Results flagged for a closer look

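The hCG response differed between bERKO and WT cells by the interaction test for 5 of the 33 genes, which is why they are listed here. For Col6a1 the change was 1.78 in bERKO and -1.04 in WT cells, a difference of 2.82 (SE 0.56, limma adjusted p = 0.0355). For Fn1 it was 3.19 in bERKO and 0.44 in WT cells, a difference of 2.75 (adjusted p = 0.0333). For Sparc it was 2.70 in bERKO and -0.44 in WT cells, a difference of 3.14 (adjusted p = 0.0399). Lama1 went the other way, at -1.51 in bERKO and 0.75 in WT cells, a difference of -2.26 (adjusted p = 0.0284). Nid2 changed by -0.79 in bERKO and 2.17 in WT cells, a difference of -2.95 (adjusted p = 0.0447). The calls were lost without 7 (Fn1) to 11 (Nid2) of the 12 arrays, each left out in turn. No explanation was tested.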

How the results depend on the processing

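Across alternatives no called gene of the 33 changed sign; of the called gene and setting pairs 384 kept the call and 183 lost it. Settings are compared with 5 calls among the 33 genes (577 among all genes) between genotypes after hCG, 1 (384) in the WT response, 12 (3455) in the bERKO response, 5 (241) in the difference of responses and 0 (2) between genotypes after PMSG. After PMSG, the calls among all genes were 7 on values as deposited, 5 on median-centred arrays, 0 with an offset of 1, 12 with 64, 8 with the filter on dim genes, 1 with the mean of probe sets, 1 with only the groups compared, 7 without the arrays of high Gapdh ratio (WT hCG 1 and bERKO PMSG 3), 22 without WT PMSG 3 and bERKO hCG 3, and 8 without all 4. Leaving out 1 array gave 0 to 26, and 0 to 1 among the 33. Between genotypes after hCG, the calls among the 33 were 2 with an offset of 1, 12 with array weights, 3 without the Gapdh pair, 10 without the replicate 3 pair, 8 without all 4, and 1 to 7 without 1 array. Among all genes they were 225 with an offset of 1, 885 with 64, 1241 with weights, 257 with only the groups compared, 261 and 246 without those pairs, 165 without all 4, and 141 to 688 without 1 array. In the WT response, calls among the 33 were 0 on median-centred arrays, with an offset of 1, with only the groups compared and without the Gapdh pair, 2 with weights, and 0 to 1 without 1 array. Among all genes they were 236 as deposited, 139 with an offset of 1, 872 with 64, 771 with the filter, 1602 with weights, 34 with only the groups compared, 858 and 11 without those pairs, and 49 to 583 without 1 array; the median of the 33 was 0.80 without all 4. In the bERKO response, calls among the 33 were 7 with an offset of 1 and 6 to 15 without 1 array, and 2071 among all genes without the replicate 3 pair. In the difference of responses, calls among the 33 were 0 with an offset of 1, 1 without either pair, 0 without all 4 and 0 to 5 without 1 array. Among all genes they were 88 with an offset of 1, 451 with 64, 404 with the filter, 426 with weights, 121 and 92 without those pairs, 4 without all 4, and 82 to 411 without 1 array. In the bERKO response, the mean of probe sets added calls for Col1a1, Col3a1, Col6a2, Col4a1, Lamb1, Lamc1 and Lox. It ended those of Col5a2, Pdgfrb and Tcf21. Between genotypes after hCG it added Col1a1, Col6a2, Fn1 and Rgs5 and ended Col5a1 and Sparc. The cause of these shifts was not tested. Some settings also leave fewer arrays or genes.

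Samples share only a replicate number: 12 same-number pairs correlated at r of -0.04 to 0.12, 1 above 0.1, and an array correlated best with its own number in 6 of 24 comparisons. With the replicate block the calls among the 33 were 3 between genotypes after hCG and 1 in the difference of responses, and among all genes 165 in the WT response and 130 in the difference of responses. Scaling moved the split of calls over all genes: between genotypes after hCG it was 220 higher and 345 lower on values as deposited and 353 and 180 on median-centred arrays, against 288 and 289. With centring the WT response gave 73 higher and 324 lower, against 134 and 250, and the bERKO response 964 and 3008, against 1285 and 2170. Centring moved the median of all genes to 0.24 between genotypes after PMSG (against 0.04), -0.22 in the WT response (against -0.08) and -0.41 in the bERKO response (against -0.19); as deposited, the responses had medians of 0.03 and -0.05. Quantile normalization before the log, and leaving out 4 arrays, were chosen after seeing the data. Signals near the floor bound what dim genes can show.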
